A study of Mus musculus with 13 samples.

Results

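Alveolar fibroblasts, the matrix-producing cells that lie in the walls of the air sacs, were picked out of single-cell RNA counts of mouse lung by a fixed rule. A barcode was taken where mitochondrial genes made up at most 10% of its unique molecular identifiers (UMIs, 1 for each captured RNA molecule) and where Col1a1, Col1a2 and Col3a1 together had at least 3 UMIs. At least 2 of Inmt, Npnt, Col13a1 and Tcf21 had to be detected, with 0 UMIs of Pi16, Cdh5, Ptprc and Myh11, which mark adventitial fibroblasts, endothelial cells, leukocytes and smooth muscle. The rule was applied to libraries 1, 2, 3 and 7 and took 1102 cells of 37344 barcodes in the whole matrix, of 24344 in those 4 libraries and of 20856 with a low mitochondrial share.

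The study compared lungs of an ovalbumin-induced asthma model, an emphysema model made by instilling porcine pancreatic elastase (PPE) into the airways, a PPE-recovery model and a control, with 1 mouse for each by the legend of its plots. The titles give these groups as Asthma, PPE-emphysema, PPE-recovery and Control. The study's methods name C57BL/6 mice, its legend calls the mice of the asthma model wild-type, and no source used here gives their age. The other 9 samples, labelled Acute injury, Con and emphysema (3 each), were not analysed here. The barcodes carry a library number and no group, so no library could be assigned to a treatment, and the libraries are given side by side without labels. Whether each of them is a separate mouse is not stated, and libraries 4, 5 and 6, which the rule leaves out, were not used here. Any difference between them therefore cannot be told apart as one of treatment, mouse or preparation.

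Alveolar fibroblasts make the collagen and elastic fibre scaffold of the alveolar wall, and a part of them stores lipid and retinoid. Nephronectin (Npnt) is a matrix ligand of the integrin whose alpha subunit is Itga8, Col13a1 is a membrane-bound collagen, Tcf21 is a basic helix-loop-helix transcription factor of lung mesenchyme, and Inmt encodes a methyltransferase that acts on indole amines. Elastin loss is the hallmark of emphysema, which makes the elastic fibre genes of these cells of interest in an elastase model.

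The promoters of these 4 genes are shown because their transcripts define the cells. Each run holds 250 bases before and 50 after a RefSeq gene start on GRCm38.p6, all on the minus strand and written 5′ to 3′. Capitals mark the E-box CANNTG, the class of site that factors of the family of Tcf21 bind, which reads the same on both strands by its pattern.
Inmt, chr6:55174941-55175240: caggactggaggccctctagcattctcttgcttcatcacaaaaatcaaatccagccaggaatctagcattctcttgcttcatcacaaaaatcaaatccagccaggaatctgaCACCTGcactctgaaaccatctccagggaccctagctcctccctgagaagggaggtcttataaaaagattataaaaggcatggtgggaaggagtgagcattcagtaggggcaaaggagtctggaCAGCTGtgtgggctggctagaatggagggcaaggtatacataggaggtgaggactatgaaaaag
Npnt, chr3:132950242-132950541: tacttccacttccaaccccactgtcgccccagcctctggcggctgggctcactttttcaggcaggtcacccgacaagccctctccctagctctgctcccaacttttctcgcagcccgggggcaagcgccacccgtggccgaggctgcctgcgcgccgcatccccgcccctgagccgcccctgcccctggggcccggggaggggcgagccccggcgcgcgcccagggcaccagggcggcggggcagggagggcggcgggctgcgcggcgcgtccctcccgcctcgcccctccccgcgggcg
Col13a1, chr10:61979059-61979358: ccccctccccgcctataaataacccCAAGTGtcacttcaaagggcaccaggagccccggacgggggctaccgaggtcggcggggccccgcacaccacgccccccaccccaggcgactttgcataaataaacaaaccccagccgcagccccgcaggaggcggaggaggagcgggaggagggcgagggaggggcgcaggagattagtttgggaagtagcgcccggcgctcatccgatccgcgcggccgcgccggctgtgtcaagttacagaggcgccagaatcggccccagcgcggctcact
Tcf21, chr10:22820094-22820393: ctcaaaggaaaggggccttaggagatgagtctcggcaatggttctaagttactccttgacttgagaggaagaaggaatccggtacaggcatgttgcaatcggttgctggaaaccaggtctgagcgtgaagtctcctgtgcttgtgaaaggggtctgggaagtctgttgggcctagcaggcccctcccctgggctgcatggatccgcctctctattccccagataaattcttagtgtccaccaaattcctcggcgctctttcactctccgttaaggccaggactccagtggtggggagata
The Inmt window held 2 matches, at -138 and -14 from the start, and the Col13a1 window held 1, at -225. The Npnt window shown and the Tcf21 window held 0, while a second RefSeq start of Npnt (chr3:132949765-132950064) held 3. CANNTG is a short pattern: 72.3% of the 32544 promoters of the same length held it (23528 of them), so the matches are a description of letters only.

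The 4 markers chose the cells, so their levels are given as a description. Levels are UMIs of a gene per 1000000 UMIs of the cells of a class (CPM), summed within a library, and they count 3′ ends of molecules, so they were not scaled by gene length. Inmt (chromosome 6, 55170626 to 55175043) had 2669, 5295, 6380 and 6518 CPM in libraries 1, 2, 3 and 7. Npnt (chromosome 3, 132881745 to 132950291) had 1574, 2144, 1623 and 1995 CPM. Inmt was lowest in library 1, whereas Npnt stayed within a narrow range. Col13a1 had 292, 332, 341 and 321 CPM, and Tcf21 had 263, 665, 444 and 337 CPM. All 4 markers had their lowest level in library 1, and Col13a1 varied least.

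Of the 1102 cells, 883 had all 4 markers, 144 had 3 and 75 had 2, with median totals of 11267, 8538 and 5478 UMIs. The cells with fewer markers were thus also the shallower ones. The median cell had 53.5 UMIs of the 3 collagens, and the 5th and 95th percentiles were 8 and 261. Just inside the rule, 13 cells had exactly 3 collagen UMIs, and just outside it 21 cells had 2. A further 68 cells with clean gates had 1 marker and 30 had none. The gates removed 683 cells with enough markers and collagen, among them 293 with Cdh5, 243 with Ptprc, 154 with Pi16 and 139 with Myh11. Their median total of 13399 UMIs was above that of the cells kept (10845), and 175 of them had only 1 UMI of the gate genes.

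The level of stray RNA was read from 2964 lymphocytes of the same libraries, which should lack these genes. Free RNA and doublets were not told apart there, and 41 of the lymphocytes had at least 3 collagen UMIs at a median depth of 15880 UMIs. Inmt was detected in 98.2% of the alveolar fibroblasts at a median depth of 10845 UMIs and in 6.38% of the lymphocytes at 5584.5 UMIs. Npnt was detected in 97.6% against 3.98%, Col13a1 in 86.1% against 1.28% and Tcf21 in 91.5% against 1.25%. With every cell thinned to 1500 UMIs, which left out 37 of the 1102 cells and 42 of the lymphocytes, Inmt was in 95.02% against 2.09% and Npnt in 85.9% against 1.30%. The rule chose the cells by these genes, so the lymphocyte shares serve only as the level of stray signal. The plot of the markers by library and class shows these levels, whose order the choice of cells fixed.

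**Figure D1:**
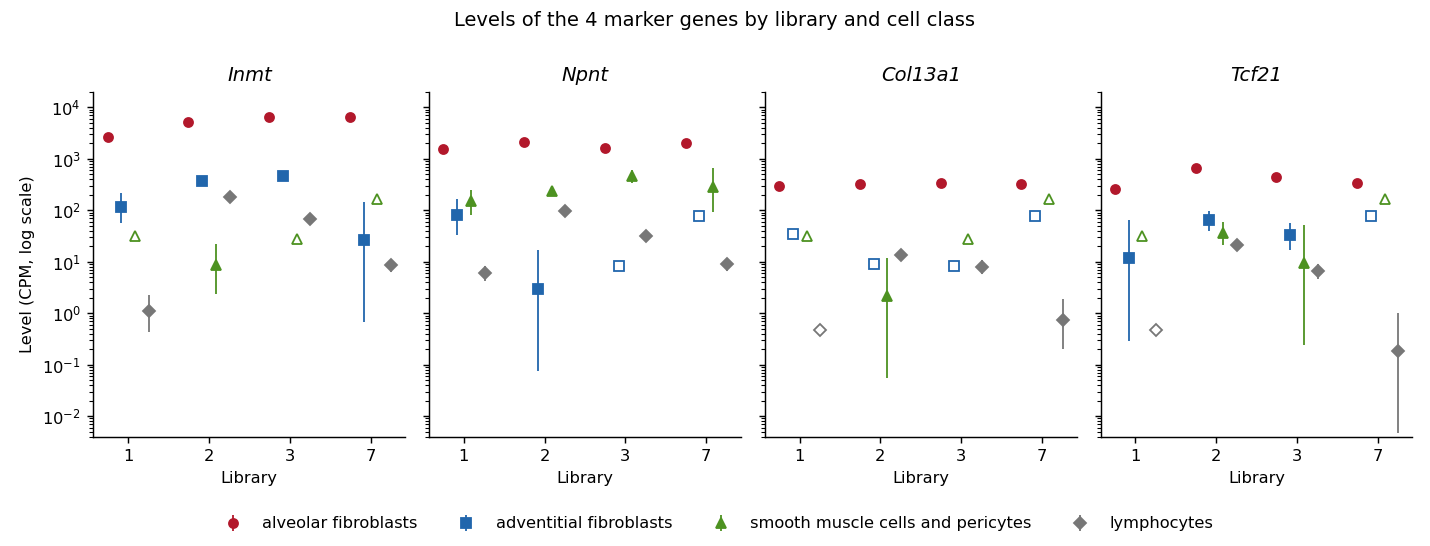
Levels of Inmt, Npnt, Col13a1 and Tcf21 (CPM, log axis) in libraries 1, 2, 3 and 7 for alveolar fibroblasts, adventitial fibroblasts, smooth muscle cells with pericytes, and lymphocytes. Bars are exact 95% Poisson intervals (counting error only), open symbols are sums of 0 drawn at the limit of 3 counts, and alveolar fibroblasts ranged from 2669 to 6518 CPM for Inmt.

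The share of alveolar fibroblasts among cells with a low mitochondrial share differed widely between the libraries. They were 65 of 4800 cells in library 1, or 1.35% (exact 95% binomial interval 1.05 to 1.72%). In library 2 they were 720 of 7626, or 9.44% (8.79 to 10.1%). In library 3 they were 270 of 5129, or 5.26% (4.67 to 5.91%), and in library 7 they were 47 of 3301, or 1.42% (1.05 to 1.89%). Libraries 1 and 7 were alike within counting error, and libraries 2 and 3 were each above both and apart from each other. The median depths were 10860, 10947, 10710.5 and 11247 UMIs in libraries 1, 2, 3 and 7, with the deepest cells at 34567, 38326, 34350 and 24990 UMIs, and totals of 753937, 7848081, 2940607 and 561541 UMIs. A low share can reflect dissociation and capture as well as the tissue, which was not tested. Of 64 barcode sequences that occurred in more than 1 of the libraries, 7 belonged to alveolar fibroblasts and none to a pair of them.

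Other markers bore on the label and on purity. Mki67, a marker of dividing cells, had 0.578 CPM, and 11 of the 15 cell cycle genes were under 20 CPM. The B cell, T cell and erythroid marker lists summed to 132, 8.0 and 6.0 CPM against 34472, 2724 and 8.4 in lymphocytes. The lists of 8 monocyte and neutrophil markers, 11 macrophage markers (led by Lyz2), 9 airway markers (led by Scgb1a1) and 10 endothelial markers (led by Tmem100) summed to 121, 547, 504 and 162 CPM against 1696, 4713, 6160 and 668 in lymphocytes. Pecam1 of endothelial cells had 5.54 CPM, and Cdh5 was fixed at 0 by the rule. The 10 adventitial fibroblast markers (led by Mfap5) summed to 2859 CPM, against 13131 in adventitial fibroblasts and 636 in lymphocytes. Among them Pi16 was fixed at 0 by the rule. The choice of cells fixed the B and T cell values, since lymphocytes were picked by such markers and the members had to lack Ptprc. The surfactant gene Sftpc of alveolar type 2 cells had 509, 1207, 1754 and 7.12 CPM in libraries 1, 2, 3 and 7, but 8 cells with at least 50 Sftpc UMIs held 92.9% of it and 494 cells had none. The 10 type 2 markers summed to 676, 1628, 2372 and 17.8 CPM by library (1675 over all libraries against 2972 in lymphocytes). The 8 markers of mesothelial cells summed to 2.7, 19.4, 130 and 219 CPM (54.4 over all libraries against 26.4 in lymphocytes), with both Msln and Upk3b in 4 cells. A doublet caller, Scrublet, marked 15 of the 1102 cells and they were kept. The part of these few cells in the results was not tested beyond the repeats without them.

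The 20 most abundant transcripts, apart from mitochondrial and ribosomal protein genes, mixed matrix genes with genes that most cells carry. Mgp, which encodes matrix Gla protein, an inhibitor of calcification, led with 43035, 36354, 38908 and 33659 CPM in libraries 1, 2, 3 and 7. Gsn, encoding the actin-severing gelsolin, had 9431, 12533, 17779 and 10053 CPM. Cst3, the secreted cysteine protease inhibitor cystatin C, had 4881, 8938, 4932 and 8104 CPM. Mgp thus varied little, while Gsn was highest in library 3 and Cst3 was high in libraries 2 and 7. The nuclear RNA Malat1 (31631 CPM over all libraries) ranked between Mgp and Gsn. The ferritin chain Fth1 (9366), the actin-binding Tmsb4x (6550), Tpt1 (4458) and the actin gene Actb (4128) were also among the 20. Of the matrix genes, Sparc had 4500, Eln 3729, Mfap4 3455, Bgn 3392 and Col3a1 3161 CPM, and the apolipoprotein gene Apoe had 3884. Inmt was the eighth most abundant of these genes. Gm42418, a transcript that overlaps ribosomal RNA sequence, had 9200, 4702, 6798 and 25040 CPM and was highest in library 7, short of 3-fold over library 1.

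The comparison with adventitial fibroblasts, the cells of vessel and airway cuffs, asked what sets alveolar fibroblasts apart from the nearest fibroblast class. The comparator held 83 cells (8, 33, 40 and 2 in libraries 1, 2, 3 and 7) with collagen and at least 2 of Pi16, Col14a1, Dpt and Ccl11, and at most 1 alveolar marker. Both classes were chosen from values of the same cells, so the difference is described and no test was run. A gene was called where its pooled CPM and its CPM in each of the 4 libraries differed at least 2-fold, among 7191 genes with 20 CPM or more in either class. By this rule 103 genes were higher in alveolar fibroblasts (1.43%) and 203 were lower (2.82%), and the median log2 ratio over all genes was 0.01. With only 2 adventitial cells in library 7, a sum of 0 there allows up to 79.0 CPM, and this limits the calls. In libraries 2 and 3 alone, where the comparator is larger, 551 of 7260 genes were higher (7.59%) and 503 lower (6.93%). Among the 551 were all 8 markers of alveolar type 2 cells tested there, whereas 0 of 7 were called over all 4 libraries. The 10 type 2 markers summed to 1675 CPM in alveolar against 89.8 in adventitial fibroblasts over all libraries. The part of such RNA in the 551 was not tested.

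**Figure D2:**
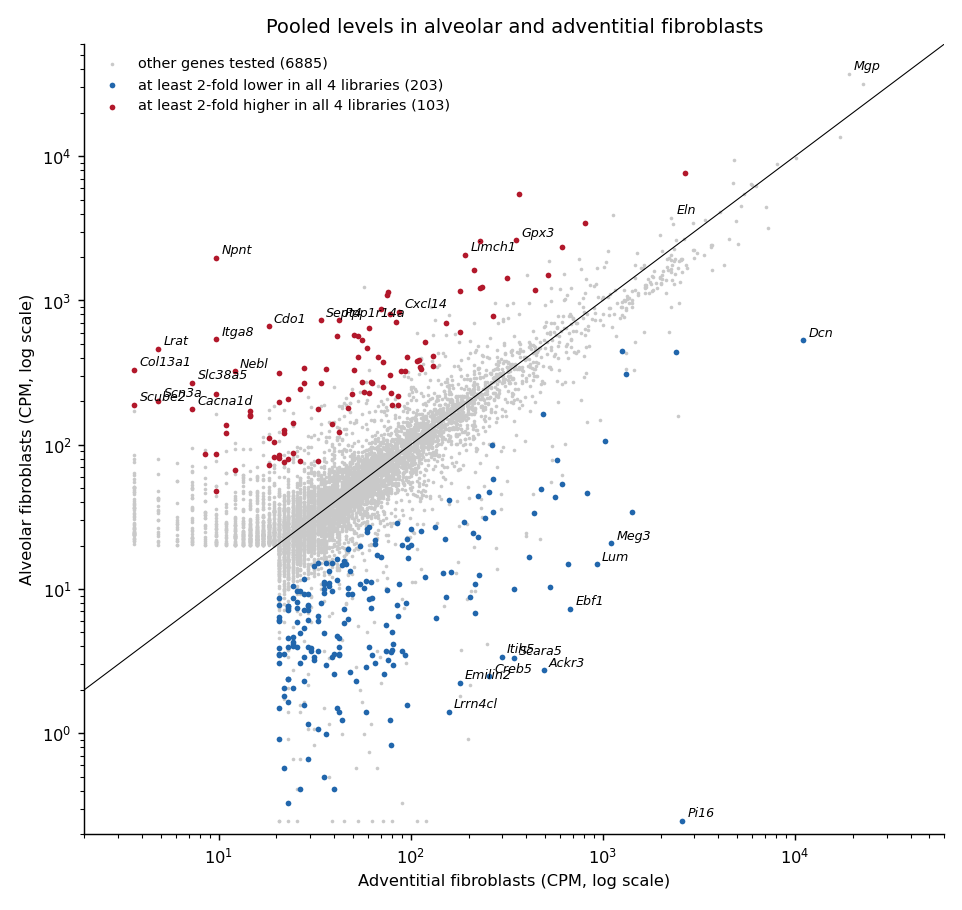
Pooled levels (CPM, both axes log) of the 7191 genes tested in adventitial (x) and alveolar (y) fibroblasts, each point a gene, with sums of 0 drawn at the limit of 3 counts and the line of equal levels. Red points are the 103 genes higher and blue points the 203 genes lower at least 2-fold in every library, and Npnt lies farthest above the line.

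Apart from the genes of the rule, Lrat and Itga8 were among the genes of highest ratio. Lrat, the enzyme that esterifies retinol for storage, had 621, 389, 615 and 520 CPM in libraries 1, 2, 3 and 7 of the alveolar fibroblasts and 4.85 CPM in adventitial fibroblasts, a ratio of 95.6 (95% interval 37.3 to 351, counting error only). Itga8, the integrin subunit that binds nephronectin, had 341, 575, 467 and 657 CPM, 55.4 times the adventitial level (28.1 to 128). Aldh1a1, which oxidises retinaldehyde, had 674, 943, 672 and 1099 CPM, 12.3 times higher (9.53 to 16.2). All 3 were above the adventitial cells in every library. Npnt itself was 203 times and Inmt 14.9 times higher, and Col13a1 was at least 90.9-fold higher against 0 UMIs, but the comparator was chosen to lack them.

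Others of the 20 genes of highest ratio had varied roles. Scn3a, a sodium channel subunit, was 41.5 times higher (16.2 to 152) and Cacna1d, an L-type calcium channel subunit, 24.3 times (11.1 to 66.2). Nebl, a nebulin-like actin protein, and the septin Sept4 had ratios of 26.6 and 21.5. Ppp1r14a, an inhibitor of myosin phosphatase, was 17.1 times higher (12.3 to 24.6) and the calcium sensor Ncald 15.3 times. The amino acid transporter Slc38a5 was 36.8 times higher, Gyg, which primes glycogen synthesis, 14.6 times and Mme, the peptidase neprilysin, 12.5 times. Scube2, a secreted protein that helps release hedgehog ligands, was at least 51.9-fold higher against 0 UMIs.

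Among the genes of lowest ratio were the proteoglycan genes Dcn and Lum, whereas the related Bgn (ratio 1.46) and Fmod (0.95) were not called. Dcn (decorin) had 411, 413, 854 and 630 CPM in libraries 1, 2, 3 and 7 of the alveolar fibroblasts against 11055 in the adventitial ones, a ratio of 0.0480, and Lum (lumican) had 14.9 against 928 CPM. The scavenger chemokine receptor Ackr3 had 2.73 against 492 CPM, the transcription factor Ebf1 7.27 against 675, the stem cell antigen Ly6a 34.0 against 1411 and the fibulin Fbln2 14.95 against 660. The long noncoding RNA Meg3 had 20.7 against 1101 CPM and Cd248 (endosialin) 10.3 against 530. Apart from Dcn, each of these genes had under 40 CPM in the alveolar fibroblasts. Pi16 was 0 by the rule.

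Of the gene lists, the enzymes of methyl transfer, redox and steroid handling stood out by number. Of 20 tested, 9 were higher than in adventitial fibroblasts and 1 was lower (Cyp1b1), with a median log2 ratio of 1.43. Gpx3, the secreted glutathione peroxidase, had 1738, 2896, 1661 and 4739 CPM in libraries 1, 2, 3 and 7 (7.41 times the adventitial level). Hsd11b1, which regenerates active glucocorticoid, had 763, 1254, 943 and 1024 CPM (14.9 times), and Cdo1, which oxidises cysteine, had 544, 691, 557 and 976 CPM (36.4 times). Hsd11b1 and Cdo1 differed between libraries by less than 2-fold, and Gpx3 was highest in library 7. Fmo2, a flavin monooxygenase, was 3.82 times higher, the superoxide dismutase Sod3 2.68 times, Gsta3 9.63 times, Selenbp1 4.31 times and Ces1d 4.27 times, and Inmt is of this list and of the rule.

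Of 27 regulators tested, 6 were higher and 1 lower (Ebf1). Tbx2, a T-box factor, had 302, 414, 389 and 481 CPM in libraries 1, 2, 3 and 7 and was 7.57 times higher, and Foxf2, a forkhead factor of mesenchyme, was 10.1 times higher at 85.7 CPM. Smooth muscle cells and pericytes had about the same level of Foxf2 (82.5 CPM). Hoxa5 was 3.82 times and Cebpb 5.30 times higher. The list also held Limch1, an actin-associated protein rather than a transcription factor, with 2074 CPM and 10.8 times the adventitial level. Tbx4, a T-box factor of lung mesenchyme, had 232 CPM and a pooled ratio of 4.25, yet 1.61 in library 7, and so was not called. Tcf21, of the rule, was 13.8 times higher.

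Of 20 collagens tested, 2 were higher and 3 lower. The higher ones were Col13a1, which is a gene of the rule, and Col27a1 (2.90 times). The lower ones were Col5a1, Col15a1 and Col14a1, which was part of the comparator's choice. Col1a1 had 2943, 1642, 1693 and 2126 CPM in libraries 1, 2, 3 and 7, Col1a2 3861, 2368, 2215 and 2951, and Col3a1 5670, 2982, 2976 and 3264. The pooled ratios of Col1a1, Col1a2 and Col3a1 to adventitial cells were 0.41, 0.48 and 0.44, below 1 in all 4 libraries without passing the 2-fold rule in each. Of 18 elastic fibre genes, Mfap4, a fibril-associated glycoprotein, was higher (4.28 times) and the fibulins Fbln1 and Fbln2 lower. Among 21 basement membrane and adhesion genes 2 were higher (Itga8, and Npnt of the rule) and 3 lower (Hspg2, Dcn and Lum). The plot of log2 ratios by gene list shows these spreads beside the list medians.

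**Figure D3:**
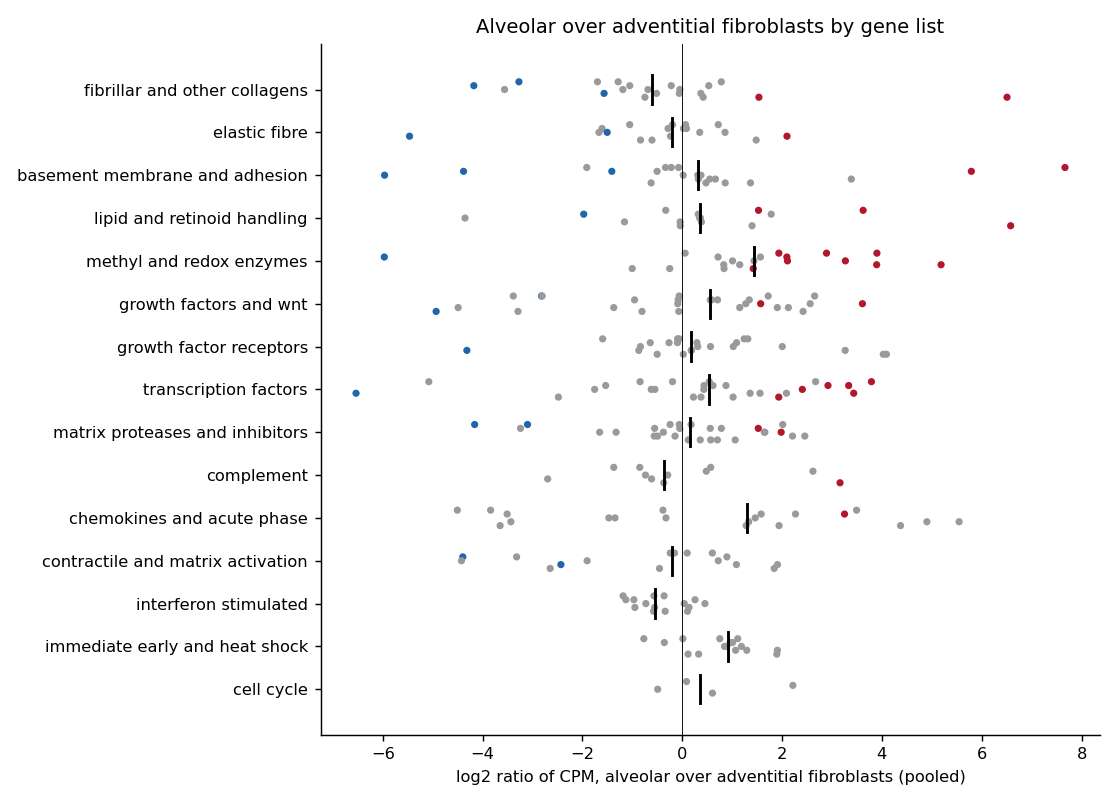
The log2 ratio of pooled CPM in alveolar over adventitial fibroblasts (x) for the genes of 15 lists (rows), each point a gene tested, with the list median as a black bar. Red and blue mark genes at least 2-fold higher or lower in every library, and the methyl and redox enzymes have the highest median, 1.43.

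The counts by list stand beside 1.43% of all genes higher and 2.82% lower, and most of them were larger in libraries 2 and 3 alone. In libraries 2 and 3 alone, where 7.59% of all genes were higher and 6.93% lower, 10 methyl and redox enzymes were higher and 1 lower of 20. Of 27 growth factors and Wnt genes 9 were higher and 7 lower, of 20 chemokine and acute-phase genes 8 and 5, of 24 receptors 5 and 2, and of 15 lipid and retinoid genes 5 and 3. All 8 markers of alveolar type 2 cells tested were higher there too, and the part of such RNA in these counts was not tested. Of 28 proteases and inhibitors 8 were higher and 5 lower, of 28 regulators 10 and 5, of 20 collagens 2 and 6 and of 18 elastic fibre genes 3 and 4. Fewer calls over all 4 libraries than over these 2 therefore do not show that a list was alike in both classes.

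Alveolar fibroblasts carried transcripts of several secreted signals. Of 27 growth factors and Wnt genes tested, 2 were higher than in adventitial cells and 2 lower (Fgf1 and Fgf18), beside 1.43% and 2.82% of all genes. In libraries 2 and 3 alone, 9 of the 27 were higher and 7 lower. Bmp3, a ligand of the bone morphogenetic protein family, had 211, 397, 226 and 321 CPM in libraries 1, 2, 3 and 7 and was 12.2 times higher. Vegfd, a lymphatic and vascular growth factor, had 229, 372, 247 and 436 CPM and was 2.97 times higher. These ligands were present in all libraries at levels that stayed within 2-fold of each other. Fgf7 and Fgf10, ligands for epithelial receptors, had 150 and 59.1 CPM over all libraries, Wnt2, an alveolar Wnt ligand, 89.2, Bmp5 188, Angpt1, a ligand of an endothelial receptor, 196 and Hgf 53.4, and none of these was called. Of 20 chemokine and acute-phase genes tested, Cxcl14 was the 1 called higher over all 4 libraries, with 745, 721, 1194 and 605 CPM in libraries 1, 2, 3 and 7 (9.52 times the adventitial level), and 0 were lower. Hp, the acute-phase haptoglobin, is not in the list and was also higher (5.77 times), with 183, 133, 21.1 and 508 CPM. Hgf had 30.5, 51.2, 70.4 and 24.9 CPM in libraries 1, 2, 3 and 7.

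Among the receptors, Pdgfra, the receptor of platelet-derived growth factors typical of fibroblasts, had 646, 746, 595 and 1036 CPM in libraries 1, 2, 3 and 7, with a pooled ratio of 2.36 to adventitial cells that fell under 2 in library 3. Gpc3, a glypican that binds growth factors, had 541, 623, 573 and 529 CPM, a narrow range. Tgfbr2 of the transforming growth factor beta pathway had 586, 516, 471 and 589 CPM. Of 24 receptors tested, 0 were higher than in adventitial fibroblasts and 1 was lower, Ntrk2, beside 1.43% and 2.82% of all genes. In libraries 2 and 3 alone, 5 receptors were higher and 2 lower. Fgfr4 had 62.0 CPM and a pooled ratio of at least 17.0 against 0 UMIs, but the shallow comparators of libraries 1 and 7 left it uncalled.

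Of the lipid and retinoid genes, 3 of 15 tested were higher than in adventitial cells and 1 was lower. In libraries 2 and 3 alone these counts were 5 and 3. Over all 4 libraries, 1.43% of all genes were higher and 2.82% lower. Besides Lrat and Aldh1a1, Plin2, the coat protein of lipid droplets, was higher (2.88 times), with 149, 121, 123 and 110 CPM in libraries 1, 2, 3 and 7. Aldh1a2, another retinaldehyde oxidising enzyme, was lower, at 7.11 against 27.9 CPM. Lpl, lipoprotein lipase, had 659, 383, 157 and 582 CPM. Pparg, a regulator of lipid genes, and Fabp4 were under 20 CPM.

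Against smooth muscle cells and pericytes, 93 cells (11, 66, 14 and 2 by library), 124 of 7454 genes were higher in alveolar fibroblasts (1.66%) and 501 lower (6.72%), with a median log2 ratio of -0.12. Both counts changed widely with a mitochondrial limit of 5%, and the count of higher genes also with thinning, as given under the processing. The lower genes included 3 of 6 macrophage and 2 of 3 endothelial markers tested. These 2 lists summed to 1165 and 918 CPM in the comparator against 547 and 162 in alveolar fibroblasts. Dpep1, a membrane dipeptidase, had 385, 623, 471 and 627 CPM in libraries 1, 2, 3 and 7 against 1.47 CPM, a ratio of 388 that rests on a single comparator UMI (interval 69.6 to 15321). Pdgfra was 60.8 times higher (30.8 to 141), the cadherin Cdh11 97.6 times, Gpc3 81.7 times and the Wnt inhibitor Sfrp1 59.7 times. Igfbp6, which binds insulin-like growth factors, was 136 times and Dcn 120 times higher. Mmp3, a stromelysin, was at least 92.6-fold higher against 0 UMIs.

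The lower genes included 13 of the 18 contractile and matrix activation genes tested. Acta2 (smooth muscle actin) had 313, 146, 94.5 and 123 CPM in libraries 1, 2, 3 and 7 of the alveolar fibroblasts against 13599.9 CPM, and Tagln (transgelin) had 284, 401, 161 and 424 against 9177. Cnn1 had 0.248, Actg2 0.413 and Actc1 0.661 CPM. Cnn1, Actg2 and Actc1 were thus at or near 0 in the alveolar fibroblasts. Cthrc1 and Lrrc15, genes of matrix-depositing activated fibroblasts, were under 20 CPM, and Postn (periostin) had 138, 11.6, 23.8 and 3.56 CPM, and 100% of its library 1 UMIs lay in at most 5 cells. Fn1 (fibronectin) was the 1 gene of the list that was higher, 6.97 times. Itga8 did not separate the classes (ratio 1.06), and Npnt was 7.53 times higher than in smooth muscle cells and pericytes.

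Between the libraries, a gene was called where its CPM in 1 library was at least 3 times, or at most 1 over 3 of, that in every other, with 50 CPM or more in the highest, among 4011 genes. High were 12 genes in library 1 (0.299%), 3 in library 2 (0.0748%), 6 in library 3 (0.15%) and 8 in library 7 (0.199%). Low were 1 gene in library 1 (0.0249%), 2 in library 2 (0.0499%), 14 in library 3 (0.349%) and 15 in library 7 (0.374%). In all, 55 genes were called (1.37%), so few genes stood apart in any 1 library. The libraries have no labelled replicates, libraries of the same mouse cannot be told apart from those of different mice, and the intervals cover counting error only.

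Most elastic fibre genes tested had their lowest level in library 3. Elastin (Eln, chromosome 5, 134702593 to 134747323) had 5084, 4262, 1130 and 8058 CPM in libraries 1, 2, 3 and 7, so library 3 was at 0.27 of the next lowest. Ltbp2, a latent transforming growth factor beta binding protein of elastic microfibrils, had 345, 395, 22.1 and 550 CPM. Fn1 had 1744, 2002, 640 and 2604 CPM and Mfap4 3344, 4263, 1446 and 2839 CPM. Library 3 was the lowest for all 4 genes, and Eln and Ltbp2 passed the 3-fold rule. Of 17 elastic fibre genes tested, 12 were lowest in library 3, where 30.5% of all genes were lowest, and 2 passed the rule. The difference held per cell at equal depth: a UMI of Eln was found in 90.3%, 90.3%, 58.9% and 95.7% of cells thinned to 1500 UMIs, and one of Ltbp2 in 29.0%, 35.7%, 3.02% and 28.3%. The list was not uniform, since Fbn1 had 415 and 409 CPM in libraries 2 and 3, and Ltbp4 was highest in library 3 (546, 899, 955 and 855 CPM in libraries 1, 2, 3 and 7).

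Elastin in the other classes of the same libraries gives the context. Adventitial fibroblasts had 4846, 3481, 797 and 0 CPM of Eln in libraries 1, 2, 3 and 7 (the last from 2 cells), and smooth muscle cells and pericytes had 2558, 4141, 1644 and 2692. Eln was lowest in library 3 in the smooth muscle cells too, and in the adventitial cells among the libraries with more than 2 of them. Lymphocytes, with 2.94, 154, 24.0 and 14.4 CPM, give the level of stray Eln RNA, free or from doublets, in each library.

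Igf1, Lpl, Lox and Serpine2, chosen after their values were seen, were also lowest in library 3 without passing the rule. Of their lists other than elastic fibre, 4 of 21 growth factor and Wnt genes, 4 of 12 lipid and retinoid genes and 10 of 26 protease and inhibitor genes were lowest there, beside 30.5% of all genes, and 10 of the 21 growth factor and Wnt genes were highest there. Igf1, insulin-like growth factor, had 523, 303, 130 and 308 CPM in libraries 1, 2, 3 and 7, and was found in 33.9%, 30.3%, 10.9% and 34.8% of cells at equal depth. Lpl was found in 37.1%, 34.0%, 15.5% and 39.1% of cells. Lox, the enzyme that crosslinks elastin and collagen, had 399, 249, 184 and 552 CPM, and Serpine2, a protease inhibitor, 797, 651, 341 and 810.

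Immediate early genes, which many stimuli induce within minutes, were highest in library 3. Fos had 691, 1425, 2585 and 1272 CPM in libraries 1, 2, 3 and 7, Junb 1463, 1870, 3571 and 1049, and Egr1 1234, 1401, 2781 and 942. Atf3, a stress-induced factor, had 41.1, 122, 394 and 92.6 CPM and was the 1 gene of the list that passed the rule. All 15 genes of the list tested were highest in library 3, where 17.7% of all genes were highest. Outside this list, the chaperone gene Hsph1 (10.6, 13.9, 7.48 and 57.0 CPM) and the related Hyou1 (19.9, 21.9, 16.7 and 73.0 CPM) were high in library 7 by the rule and lowest in library 3. Against adventitial fibroblasts, 0 of 16 genes of this list were called in either direction over all 4 libraries, with a median log2 ratio of 0.92. In libraries 2 and 3 alone, 5 were higher. Of 15 interferon-stimulated genes, 0 were called in both cases. Of all genes, 1.43% were higher and 2.82% lower over all 4 libraries, and 7.59% and 6.93% in libraries 2 and 3 alone. At such shares, 0 calls in lists of this size do not show that the classes were alike. Fos was found in 41.9%, 58.8%, 80% and 37.0% and Atf3 in 3.23%, 9.83%, 31.7% and 8.70% of cells at equal depth. In lymphocytes Fos had 258, 348, 270 and 526 CPM, so there library 7 was highest, and in adventitial fibroblasts it had 662, 783, 851 and 26.3. In smooth muscle cells and pericytes Fos had 892, 1640, 1186 and 112 CPM, so there library 2 was highest. Maff, a small Maf factor, and Tnfaip6, a hyaluronan-binding protein, were also high in library 3, at 320 and 85.4 CPM.

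**Figure D4:**
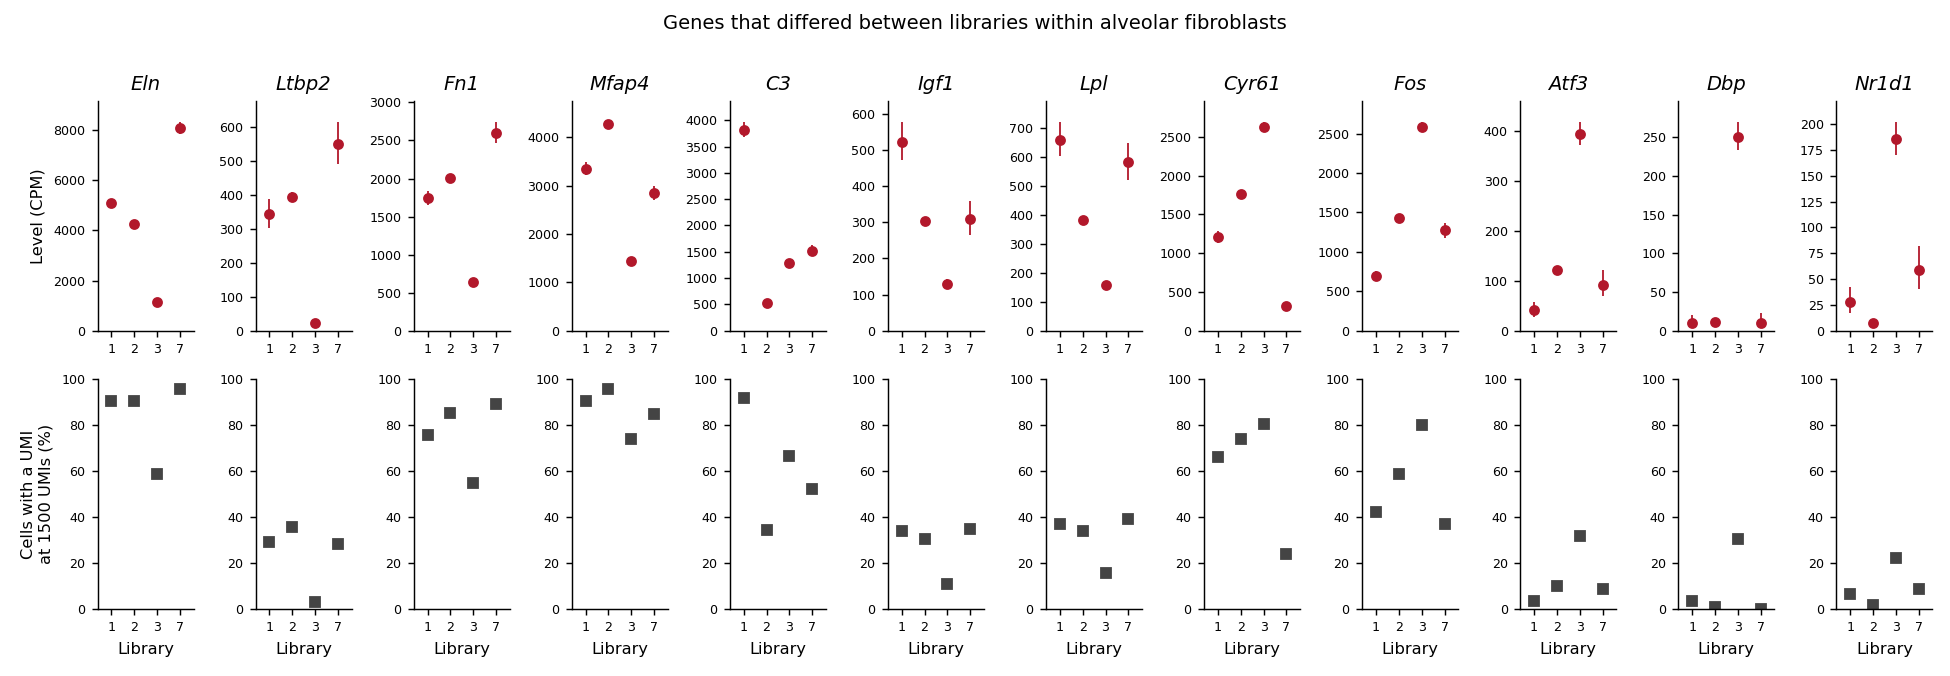
Levels within alveolar fibroblasts of 12 genes by library (upper row, CPM from 0, bars are exact 95% Poisson intervals, counting error only) and the share of cells with a UMI after thinning to 1500 UMIs (lower row, percent). Eln, Ltbp2, Fn1, Mfap4, Igf1 and Lpl are lowest and Fos, Atf3, Dbp and Nr1d1 highest in library 3, C3 is highest in library 1 and Cyr61 lowest in library 7.

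Cyr61, a matricellular protein and target of mechanical and growth signals, had 1211, 1759, 2629 and 315 CPM in libraries 1, 2, 3 and 7. It was low in library 7 by the rule and was found in 66.1%, 74.0%, 80.4% and 23.9% of cells at equal depth. Ctgf, a related gene, had 373, 300.5, 464 and 260.0 CPM and stayed within 2-fold. Of the 15 genes low in library 7, 5 were type 2 cell markers, and no cell of library 7 had 50 Sftpc UMIs.

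Most complement genes tested had their highest level in library 1. C3, the central component, had 3820, 536, 1281 and 1521 CPM in libraries 1, 2, 3 and 7, and was found in 91.9%, 34.4%, 66.4% and 52.2% of cells at equal depth. C4b had 1031, 396, 644 and 773 CPM. Both were highest in library 1 and lowest in library 2. Serping1, the inhibitor of the first component and the most abundant gene of the list, varied little (1667, 1404, 1618 and 1533 CPM). Of 11 complement genes tested, 7 were highest in library 1 (30.4% of all genes were) and 8 lowest in library 2 (19.6%), and none of these 11 passed the 3-fold rule. C6, a component of the membrane attack complex that is not in the list, was low in library 3 by the rule (30.5, 25.2, 5.10 and 55.2 CPM). C3 in adventitial fibroblasts had 4707, 2149, 2493 and 711 CPM. Against those cells, 1 of 11 complement genes was higher, Cd59a, which blocks the membrane attack complex (8.94 times), and 0 were lower. Of all genes 1.43% were higher and 2.82% lower. The median log2 ratio of the list was -0.37, and C3 had a pooled ratio of 0.39. In libraries 2 and 3 alone 2 complement genes were higher and 1 lower, beside 7.59% and 6.93% of all genes.

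Collagens and interferon-stimulated genes were also highest in library 1 more often than genes at large. Of 18 collagens tested, 13 were highest there, none of them at 3-fold over the other libraries. Without Col1a1, Col1a2, Col3a1 and Col13a1, which chose the cells, 10 of 14 were. Of 12 interferon-stimulated genes tested, 9 were highest in library 1 and 8 were lowest in library 7, where 29% of all genes were lowest. Ifi27l2a had 800, 259, 776 and 103 CPM and B2m, the light chain of class I molecules, 1784, 953, 1034 and 896. The 3 interferon genes that passed the rule in library 1 were carried by few cells, since 5 cells or fewer held 100% of the Rsad2, 90.9% of the Ifit1 and 90.2% of the Ifit3 UMIs there. In contrast, the methyl and redox enzymes were lowest in library 1 in 11 of 17, or in 10 of 16 without Inmt, which is of the rule, where 20.9% of all genes were.

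**Figure D5:**
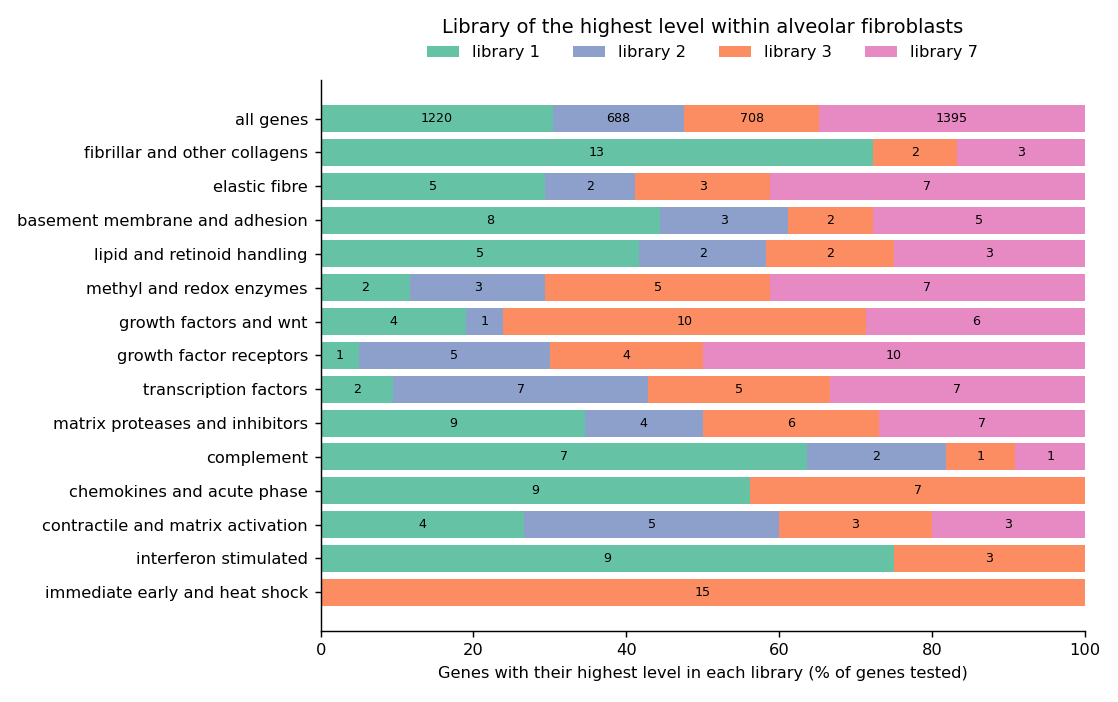
For all 4011 genes and for 14 gene lists with 10 or more genes tested (rows), the share of genes (percent, x) with their highest CPM in library 1, 2, 3 or 7, with the number of genes printed in each segment. All 15 genes tested of the immediate early and heat shock list are highest in library 3, against 708 of the 4011 genes.

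Several high values of library 1 came from a handful of its 65 cells. Saa3, an acute-phase protein, had 926, 155, 0.680 and 249 CPM in libraries 1, 2, 3 and 7, with 84.2% of the library 1 UMIs in 5 cells and a UMI in 12.9% of its cells at equal depth. Spp1 (osteopontin) had 988, 42.9, 32.0 and 94.4 CPM, with 99.9% in 5 cells. Retnla, a product of alternatively activated macrophages, had 208, 3.95, 2.72 and 5.34 CPM, with 95.5% in 5 cells. For Saa3, Spp1 and Retnla, the library 1 level therefore rested on few cells. Lcn2 (lipocalin) was more widespread, with 488, 61.4, 9.86 and 60.5 CPM, 63.9% in 5 cells and a UMI in 20.97%, 1.01%, 2.26% and 6.52% of cells at equal depth. Timp1, a metalloproteinase inhibitor, had 715, 132, 122 and 755 CPM, and 5 cells held 79.8% of it in library 1 and 94.3% in library 7. Tnc (tenascin C) had 154, 73.3, 10.9 and 283 CPM, with 84.5% of the library 1 UMIs in 5 cells. Saa3 and Lcn2 occurred together in 10 cells where 1.98 were expected from independent detection within libraries. These library 1 sums thus rested largely on 5 cells, least so for Lcn2 (63.9%), which more cells carried.

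Proteases and their inhibitors were dominated by Cst3. Of 28 tested, Cst3 (2.87 times) and Adamts8 were higher than in adventitial fibroblasts, and Mmp23 and Serpinf1, which encodes an antiangiogenic serpin, lower. Of all genes 1.43% were higher and 2.82% lower. In libraries 2 and 3 alone, 8 of the 28 were higher and 5 lower, beside 7.59% and 6.93% of all genes. Cathepsin L is the lysosomal protease in the title of the series. Its gene Ctsl had 651, 829, 815 and 718 CPM in libraries 1, 2, 3 and 7 and was found in 59.7%, 70.4%, 69.8% and 67.4% of cells at equal depth. It differed by less than 2-fold between the libraries and was 2.66 times the level of smooth muscle cells and pericytes, with a ratio of 0.71 to adventitial fibroblasts. Mmp2, a gelatinase, had 789, 717, 438 and 643 CPM, and Mmp3 411, 300, 686 and 477. Timp2 and Timp3, inhibitors of metalloproteinases, had 906 and 1944 CPM over all libraries. Mmp9 and Mmp12, metalloproteinases of leukocytes, were under 20 CPM.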

How the data were processed

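The data were single-cell counts of mouse lung made with a droplet 3′ kit. The authors' deposited values are counts, UMIs per gene and cell in 1 matrix, without normalization after Cell Ranger, which used STAR with mm10 by the submitters' processing notes. The study's supplement adds that Cell Ranger down-sampled reads where needed to even out the samples. Whether the counts of this matrix passed through that step was not tested. Kit versions differ between the labels and the methods. Of 31053 gene identifiers, 30934 were found in GENCODE M21, which gave the positions. Members and gene lists were chosen with earlier results of these data known. Named genes were the 20 (smooth muscle comparison 10) of highest and of lowest ratio among called genes with at least 100 CPM, the 20 most abundant, the 10 highest called in each library, and examples from 27 gene lists. Genes low in 1 library that lie outside these were not named. Some named genes are not reported here.

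UMIs were summed by class and library and scaled to CPM, with exact 95% Poisson and Clopper-Pearson intervals. No test was run, because libraries could not be assigned to groups and cells are not replicates, so rules on outlying samples of a group did not apply. Comparators had 0 UMIs of Cdh5 and Ptprc (adventitial cells also of Myh11). Smooth muscle cells and pericytes had 2 of Myh11, Cox4i2, Higd1b and Notch3, and lymphocytes 2 of Cd3e, Cd3d, Trac, Cd79a, Cd79b and Ms4a1. A sum of 0 was set to 3 counts for ratios. Steps were tested on simulated data. Python 3.11.15, numpy 2.4.6, scipy 1.17.1, pandas 2.3.3, scanpy 1.11.5 (Scrublet, expected rate 5%) and matplotlib 3.10.9 were used.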

Additional observations from a re-analysis of the deposited data

How the results depend on the processing

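No paired analysis was possible because the libraries carry no group or replicate number. The comparators hold as few as 2 cells in library 7, where a sum of 0 was set to 3 counts. The number of alveolar fibroblasts, 1102, became 650 with a mitochondrial limit of 5%, 1785 without the gates of 0 UMIs, and 382 to 1055 when 1 library was left out (382 without library 2). The genes higher than in adventitial fibroblasts, 103, became 29 with UMIs and genes within 2 SD, 11 after thinning to 1500 UMIs, 201 at a fold of 1.5, 40 at a fold of 3, 551 in libraries 2 and 3 alone and 108 to 226 without 1 library (164 without library 1 and 226 without library 7). The genes lower than in adventitial fibroblasts, 203, became 323 after thinning (57 of the 203 among them), 360 and 96 with a minimum of 5 and 50 CPM, 368 and 103 at folds of 1.5 and 3, 503 in libraries 2 and 3 alone and 233 to 313 without 1 library (313 without library 1). Without the gates, 97 of these 203 lower genes and 80 of the 103 higher ones were still called. With the mitochondrial limit of 5% these were 128 and 64, and with UMIs and genes within 2 SD 153 and 25. The genes higher than in smooth muscle cells and pericytes, 124, became 6 with the limit of 5%, 249 without the gates, 18 after thinning, 499 in libraries 2 and 3 alone and 134 to 375 without 1 library (375 without library 7), and the genes lower than in smooth muscle cells and pericytes, 501, became 1121 with the limit of 5%. The genes high or low in 1 library, 55, became 91 with the limit of 5%, 278 after thinning and 48 to 96 without 1 library (96 without library 2). Over the alternatives, 231 CPM values of named genes left their counting interval and 129 did not, and 234 log2 ratios did and 905 did not. A further 1 turned its sign: Ppp1r14a against smooth muscle cells and pericytes was 0.31 without the gates. The causes were not tested. The use of libraries 2 and 3 alone, and the omission of cells with at least 50 Sftpc UMIs (1094 cells, 104 and 212 genes against adventitial cells), were chosen after seeing the data.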

Other observations

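Genes of the circadian clock differed between the libraries in alveolar fibroblasts. Dbp, an output gene, had 10.6, 10.8, 251 and 10.7 CPM in libraries 1, 2, 3 and 7, and Nr1d1, a repressor of the loop, had 27.9, 7.52, 186 and 58.8 CPM. Arntl, the activator that runs in the opposite phase, had 38.5, 42.3, 8.84 and 49.9 CPM. Dbp was thus highest and Arntl lowest in library 3. A list of 17 clock genes was then drawn up, after Dbp and Nr1d1 had been seen, and is no independent evidence. Of 14 with 20 CPM or more in a library, 10 were highest in library 3, Dbp and Nr1d1 included. Of all 4011 genes, taken at 50 CPM or more, 17.7% were highest there. The 10 also held Per3 (27.9, 9.81, 59.9 and 35.6 CPM), Tef (17.2, 29.7, 84.3 and 53.4), Hlf (43.8, 22.0, 105 and 51.6) and Nr1d2 (29.2, 11.98, 78.9 and 48.1). Cry1 was lowest in library 3 (15.9, 20.9, 5.44 and 17.8). Dbp in smooth muscle cells and pericytes had 32.2, 8.68, 234 and 0 CPM and in adventitial fibroblasts 11.6, 9.07, 86.7 and 52.6. Arntl had 46.5, 42.3, 40.6 and 26.3 CPM in adventitial fibroblasts, where library 3 was not the lowest, and 21.5, 32.5, 0 and 56.1 in smooth muscle cells and pericytes. In lymphocytes Dbp had 7.88, 8.91, 12.7 and 10.3 CPM. No source used here gives the hour at which the lungs were taken, and its part was not tested.

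Of 11 pairs of genes looked at within cells at equal depth, those of widely detected genes were found together about as often as independent detection within libraries gives. Npnt and the integrin subunit Itga8 were found together in 542 of 1065 cells where 514 were expected, Lrat and Aldh1a1 in 322 where 290 were expected, and Eln and Fn1 in 715 where 701 were expected. Some pairs of rarely detected genes were found together more often, with Saa3 and Timp1 in 10 cells where 3.17 were expected, besides Saa3 and Lcn2, and Cxcl10 and Rsad2 in 2 cells where 0.0496 were expected. These pairs rest on few cells.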
